A study of Mus musculus with 6 samples.

Results

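In newborn mouse epidermis labelled Paxbp1 knockout or wild type, 10 genes of innate defence were followed: the beta-defensins Defb1, Defb3, Defb4, Defb6 and Defb14, the protease inhibitor Slpi, the siderophore-binding protein Lcn2 and the serum amyloid A genes Saa1, Saa2 and Saa3. They were chosen by name, each symbol matched 1 row, and they are 10 of the 54532 genes in the deposited count table. RNA was sequenced from 3 libraries whose genotype label is Paxbp1 knockout and 3 labelled wild type, to ask how Paxbp1 acts in epidermal homeostasis. The epidermis came from newborn mice and was peeled from the dermis after Dispase II digestion. The labels do not give the deleted exons, the cells in which the gene was removed, or whether a library was 1 animal, a pool or a separate litter. The p-values therefore reflect differences among libraries, which may be technical.

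Beta-defensins are small, cationic, cysteine-rich peptides that epithelial cells secrete and that disrupt microbial membranes, and several also attract immune cells. Defb1 is made by many epithelia without a stimulus, whereas Defb3, Defb4 and Defb14 are known as genes that microbes and cytokines such as interleukin-17 and interleukin-22 induce in skin and airway. Slpi inhibits neutrophil serine proteases, Lcn2 withholds iron from bacteria by binding their siderophores, and the serum amyloid A proteins are lipid-binding acute-phase proteins, of which Saa1 and Saa2 are made mainly by the liver and Saa3 by many tissues outside it.

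Library totals ran from 16315317 to 17816327 counts. Levels are given as CPM, counts scaled by library size with edgeR's TMM factors (mean ± SD over 3 libraries unless stated), and changes as log2 fold changes, knockout minus wild type, ± SE, with a call where edgeR's quasi-likelihood test over 16471 genes gave a Benjamini-Hochberg adjusted p under 0.05. Paxbp1 itself had 109.5, 70.9 and 77.8 CPM in the wild type libraries and 134, 73.6 and 69.7 CPM in those labelled knockout, so the total of its counts did not separate the labels. It was not called (log2 fold change 0.10), and the deleted part of the gene was not examined. As a check of the tissue label, the summed CPM of 7 basal keratinocyte markers (19280 to 21297 in wild type) and of 9 suprabasal markers (67611 to 122273) was high in the wild type epidermis. In the knockout libraries the same sums were 1887 to 4899 and 3049 to 7679 CPM, and 7 of 7 basal and 8 of 9 suprabasal markers were called lower. Most macrophage, neutrophil and fibroblast markers moved the other way. Called higher were 12 of 12 macrophage, 9 of 13 neutrophil and 10 of 11 fibroblast markers. The other 4 neutrophil markers were below the filter. The remaining fibroblast marker, Postn, was called lower (log2 fold change -2.91, edgeR adjusted p = 5.73e-06).

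Across the 10 genes, 7 were called higher in the knockout libraries, none was called lower, Defb1 was tested and not called, and Defb6 and Saa2 had too few counts to be tested. Among all genes tested, 28.7% were called higher and 25.1% lower, 53.8% in all, so calls were common. Several of the differences were large: Saa3 went from no count to 1148 ± 555 CPM, Lcn2 from 3 counts in all to 254 ± 94.4 CPM, and Slpi from 0.201 ± 0.103 to 131 ± 56.2 CPM. Among the 7, 6 (Defb3, Defb4, Slpi, Lcn2, Saa1 and Saa3) had fewer than 10 counts in every wild type library and passed the filter on low counts through the knockout libraries alone, so the number called is not support of its own. Every knockout library lay above every wild type library for 8 of the 10 genes, all but Defb1 and Saa2, beside 31.9% of all genes tested. Defb6 is among the 8 only by the scaling factors, since knockout replicate 3 and wild type replicate 2 had 1 count each. Neither Defb6 nor Saa2 is among the genes tested, so the shares have unlike bases. For the 6 genes that passed the filter through the knockout libraries alone, such a separation was nearly fixed in advance. The number separated is therefore not support of its own either. No gene of the 10 had all wild type libraries above, beside 30.4% of all genes tested.

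**Figure D1:**
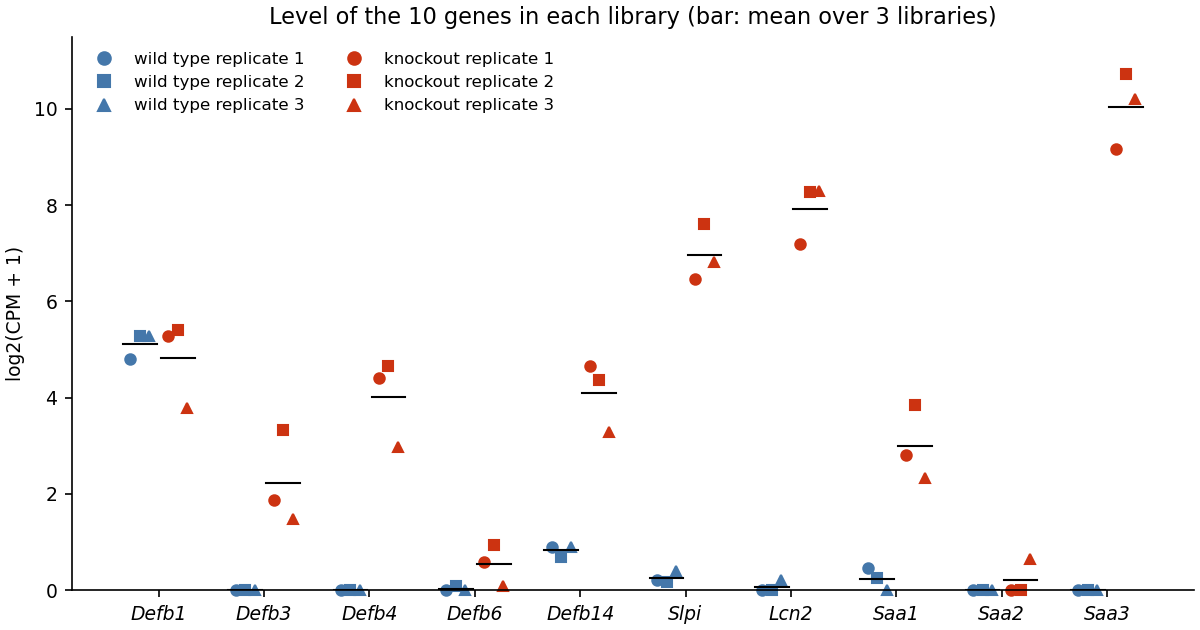
Level of the 10 genes in each of the 6 libraries, as log2(CPM + 1) on the vertical axis, with wild type libraries in blue, knockout libraries in red, one marker shape per replicate number and a bar at the mean of each group. Defb1 is the only gene with a clear level in wild type (34.3 CPM on average), Saa3 is the highest in knockout (1148 CPM), and Saa2 shows counts in a single library.

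Defb1 (ENSMUSG00000044748, mm10 chr8:21776599-21795185, plus strand) was the beta-defensin of the wild type epidermis. It had 26.7, 38.1 and 38.0 CPM in the wild type libraries and 37.9, 41.6 and 12.8 CPM in the knockout libraries. The first 2 knockout libraries sat at the top of the wild type range or above it, and the third below it. The mean was 34.3 ± 6.54 CPM in wild type and 30.7 ± 15.7 CPM in knockout, a log2 fold change of -0.16 ± 0.37 (edgeR adjusted p = 0.745). Its fold had a 95% interval of 0.506 to 1.59, which leaves room for a moderate fall or rise. Without knockout replicate 3 the estimate turned to 0.22 (edgeR adjusted p = 0.488). In bulk epidermis fewer cells of a type and less RNA per cell cannot be told apart, and the keratinocyte markers given above fell while Defb1 did not pass the test in either direction.

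The other 4 beta-defensins lie together on chromosome 8, in the order Defb14, Defb4, Defb6 and Defb3, with gaps of 3.49, 23.9 and 65.2 kb, and Defb1 lies 2481 kb beyond Defb3. Defb14 (ENSMUSG00000046354, mm10 chr8:19194357-19195212, plus strand) was the only one of these with counts in every wild type library: 16, 10 and 16 counts, against 426, 302 and 141 in knockout. In CPM that was 0.873, 0.611 and 0.849 in wild type and 24.1, 19.7 and 8.73 in knockout, so the lowest knockout library stood far above the highest wild type library. Defb14 rose 22.3-fold (95% interval 11.4 to 43.5, log2 fold change 4.48 ± 0.44, edgeR adjusted p = 9.75e-06).

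Defb4 (ENSMUSG00000059230, mm10 chr8:19198706-19201545, plus strand) had no count in wild type and 359, 371 and 110 counts in knockout. These were 20.3, 24.2 and 6.81 CPM, at least 306-fold above a floor of 3 counts over the wild type group (edgeR adjusted p = 1.81e-05). Defb4 thus went from nothing detectable at this depth to a level near that of Defb14 in CPM. Defb3 (ENSMUSG00000039775, mm10 chr8:19293360-19295291, plus strand) also had no count in wild type, and 47, 138 and 29 counts in knockout. At 2.66, 9.02 and 1.80 CPM it was at least 80.1-fold above the same floor (edgeR adjusted p = 3.1e-04). Knockout replicate 2 held most of its 214 counts, and without that library the fitted log2 fold change went from 9.26 to 8.29 and Defb3 was still called. Defb6 (ENSMUSG00000050756, mm10 chr8:19225478-19228209, plus strand), a neighbour of Defb3, had 0, 1 and 0 counts in wild type and 9, 14 and 1 in knockout. The ratio of its summed counts was 26.2 with a 95% counting interval of 4.27 to 1076. Defb6 was below the filter. With no filter, edgeR called it (log2 fold change 4.23 ± 1.43, adjusted p = 0.0119) and limma-trend on log2(FPKM + 1) did not (adjusted p = 0.0908).

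Defb3 and Defb6 are shown by the 249 and 250 bases before their start sites, since they are neighbours with related upstream sequence (72.5% identical over the 250 bases) and with counts almost confined to the knockout libraries. The sequences are RefSeq's, on GRCm38.p6, at chr8:19293111-19293359 for Defb3 and chr8:19225228-19225477 for Defb6, both on the plus strand and read 5′ to 3′ toward the gene. Capitals mark the letters TTGCNNAA, a C/EBP-type site.
Defb3: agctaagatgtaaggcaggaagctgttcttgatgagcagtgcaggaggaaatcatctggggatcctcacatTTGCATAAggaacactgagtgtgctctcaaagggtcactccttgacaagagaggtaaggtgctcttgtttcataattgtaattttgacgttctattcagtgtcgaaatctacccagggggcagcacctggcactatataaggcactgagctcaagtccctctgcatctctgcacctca
Defb6: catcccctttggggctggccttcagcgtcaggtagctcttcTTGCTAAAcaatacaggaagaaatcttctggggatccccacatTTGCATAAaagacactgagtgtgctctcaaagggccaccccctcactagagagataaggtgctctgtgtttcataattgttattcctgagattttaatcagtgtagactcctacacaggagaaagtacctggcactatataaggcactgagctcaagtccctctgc
Defb3 holds the letters once, at -179 to -172 from the start, and Defb6 holds them at -209 to -202 and again at -166 to -159. The match nearer the start has the same 8 letters in both genes.

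Because short genes collect fewer counts, the 5 beta-defensins were compared with each other in the deposited FPKM, which are scaled by gene length. Defb1 made up 87.8, 93.2 and 91.3% of the summed beta-defensin FPKM in the wild type libraries and 19.95, 20.4 and 18.5% in the knockout libraries. Defb14 took 12.2, 6.40 and 8.71% in wild type and 54.3, 41.4 and 54.1% in knockout, where it was the largest part in every library. Defb4 made up 19.0 to 22.9% of the sum in knockout and Defb3 4.44 to 14.0%. By FPKM the leading beta-defensin was therefore Defb1 in all 3 wild type libraries and Defb14 in all 3 knockout libraries. The change of leader rests on the scaling by length, with a table length of 204 bases for Defb14 and 872 for Defb1, since Defb1 had more counts than Defb14 in every knockout library too (669, 636 and 206 against 426, 302 and 141). The sum itself was 33.5, 46.3 and 46.8 FPKM in wild type and 216, 231 and 79.5 FPKM in knockout. Knockout replicate 3 had the lowest sum of its group and nearly the same make-up as the others.

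**Figure D2:**
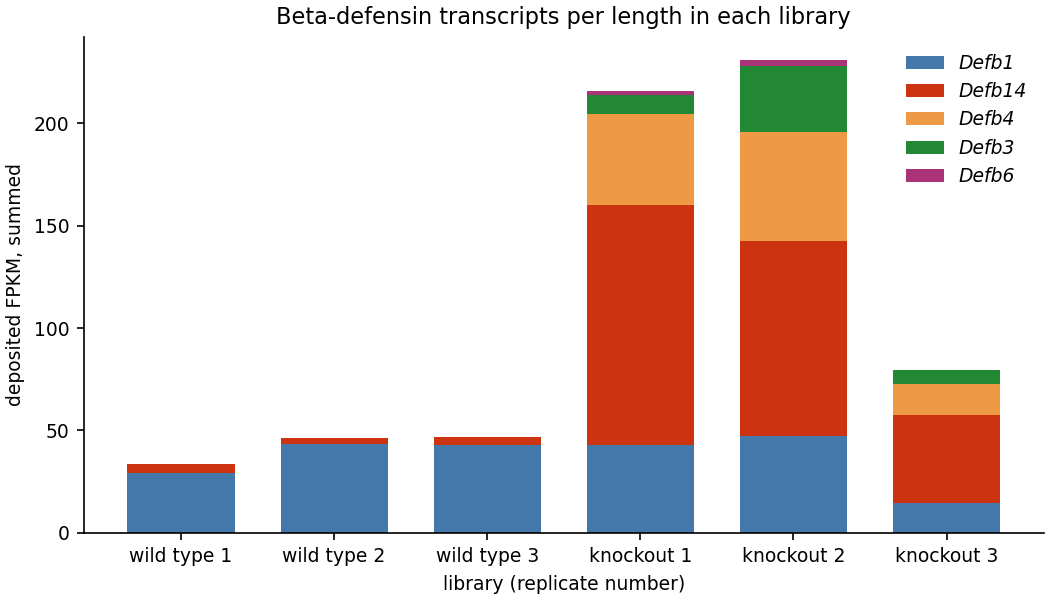
Deposited FPKM of the 5 beta-defensins stacked for each library, with the summed FPKM on the vertical axis and the 6 libraries on the horizontal axis. Defb1 fills most of each wild type bar (87.8 to 93.2%), and Defb14 is the largest segment of each knockout bar (41.4 to 54.3%), also in knockout replicate 3, whose bar is the shortest of its group at 79.5 FPKM.

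Slpi (ENSMUSG00000017002, mm10 chr2:164354070-164389095, minus strand) encodes the secretory leukocyte protease inhibitor, which protects epithelia from neutrophil elastase and cathepsin G. It had 3, 2 and 6 counts in the wild type libraries and 1533, 2977 and 1819 counts in the knockout libraries. In CPM the wild type libraries were at 0.164, 0.122 and 0.318 and the knockout libraries at 86.8, 195 and 113. Slpi rose 619-fold (95% interval 297 to 1291, log2 fold change 9.27 ± 0.48, edgeR adjusted p = 2.01e-07), and the groups were far apart. A microRNA gene, Mir7678, lies within its span on the same strand, so the annotation does not keep every read of that stretch apart. Elane, the gene of neutrophil elastase, had 1, 0 and 0 counts in wild type and 16, 1 and 2 in knockout, and Ctsg, that of cathepsin G, had none in wild type and 7, 13 and 7 in knockout.

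Lcn2 (ENSMUSG00000026822, mm10 chr2:32384633-32388252, minus strand) encodes lipocalin 2, a neutrophil granule protein that epithelia also make. It had 0, 0 and 3 counts in wild type and 2568, 4691 and 5027 counts in knockout, which is 145, 307 and 311 CPM. The ratio of its summed counts, scaled for library size, was 4464 with a 95% counting interval of 1527 to 21650, and the edgeR adjusted p was 2.25e-07. All 3 wild type counts came from 1 library, and without it the fitted log2 fold change moved from 11.98 to 15.05. Among genes known to work with Lcn2, the receptor gene Slc22a17 fell from 44.1 ± 16.8 to 5.99 ± 1.95 CPM, and Mmp9, whose protein Lcn2 binds, rose from 0.209 ± 0.135 to 195 ± 87.9 CPM. Slc22a17 and Mmp9 were called by edgeR at adjusted p = 3.83e-05 and 2.54e-07.

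The serum amyloid A genes lie on chromosome 7 in the order Saa3, Saa1, Saa2, with gaps of 24.8 and 8.81 kb, and they behaved very unequally. Saa3 (ENSMUSG00000040026, mm10 chr7:46711998-46715700, minus strand) had no count in any wild type library and 10191, 25782 and 19080 counts in the knockout libraries. At 577, 1685 and 1182 CPM it was at least 20482-fold above the floor of 3 wild type counts (edgeR adjusted p = 7.92e-07). Knockout replicate 1 was the lowest and replicate 2 the highest, 2.92 times apart, a spread that is small beside the gap to wild type.

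Saa1 (ENSMUSG00000074115, mm10 chr7:46740497-46742980, minus strand) was a minor transcript with 7, 3 and 0 counts in wild type and 106, 204 and 65 in knockout. In CPM these were 0.382, 0.183 and 0 in wild type and 6.002, 13.3 and 4.03 in knockout. Saa1 rose 40.0-fold (95% interval 12.3 to 130, log2 fold change 5.32 ± 0.77, edgeR adjusted p = 1.65e-04). With so few wild type counts the estimate moved when single libraries were left out, to 6.37 without wild type replicate 1, 4.74 without wild type replicate 3 and 4.70 without knockout replicate 2, and it was called each time. Saa2 (ENSMUSG00000057465, mm10 chr7:46751790-46754313, plus strand) had no count in 5 libraries and 9 in knockout replicate 3. Its groups overlapped, it was below the filter, and with no filter edgeR did not call it (adjusted p = 0.0702). Saa3 was 98.9, 99.2 and 99.6% of the summed serum amyloid A FPKM in the 3 knockout libraries.

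Reads of near-identical copies can be split or dropped in counting. Of the 50-base stretches of Saa1 transcripts, 31.5% also occur in Saa2 or Saa3, and of those of Saa2, 30.0% occur in Saa1, so the Saa1 and Saa2 counts are uncertain. For Saa3 the share was 4.15%, in sequence repeated over many genes, and for Defb4 it was 5.68%, shared with Defb8. No shared stretch was found for the other 6 genes.

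The 3 serum amyloid A genes are printed by their upstream sequence because Saa1 and Saa2 are 94.8% identical over the 250 bases before the start, yet Saa1 had counts in every knockout library and Saa2 in 1, while Saa1 and Saa3 are 48.9% identical there. The sequences are RefSeq's, on GRCm38.p6, cut where annotated exons begin: chr7:46715701-46715926 for Saa3 and chr7:46742981-46743230 for Saa1, both on the minus strand, and chr7:46751583-46751789 for Saa2 on the plus strand. They read 5′ to 3′ toward the gene, and capitals mark TTGCNNAA or its reverse complement.
Saa3: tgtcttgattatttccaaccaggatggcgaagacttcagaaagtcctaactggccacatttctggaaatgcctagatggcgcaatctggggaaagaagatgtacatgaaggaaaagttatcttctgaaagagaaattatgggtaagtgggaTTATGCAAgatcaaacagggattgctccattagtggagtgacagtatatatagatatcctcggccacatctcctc
Saa1: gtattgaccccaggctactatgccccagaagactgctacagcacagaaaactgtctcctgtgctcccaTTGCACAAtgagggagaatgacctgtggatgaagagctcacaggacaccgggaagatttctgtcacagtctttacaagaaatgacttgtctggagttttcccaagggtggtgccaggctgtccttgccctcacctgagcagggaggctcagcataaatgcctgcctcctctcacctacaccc
Saa2: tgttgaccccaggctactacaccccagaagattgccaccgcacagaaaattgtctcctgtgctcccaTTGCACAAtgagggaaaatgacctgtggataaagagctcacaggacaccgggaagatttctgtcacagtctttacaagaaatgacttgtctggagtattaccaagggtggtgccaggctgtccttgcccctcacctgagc
The match lies at -99 to -92 in Saa3, at -182 to -175 in Saa1 and at -183 to -176 in Saa2. Saa1 and Saa2 carry the same 8 letters there.

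Over the genes with a RefSeq promoter, 7 of the 10 (all but Defb1, Defb4 and Defb14), TTGCNNAA occurred on either strand in the 250 bases before the RefSeq start of all 7. Among 32851 promoters it occurred in 9.56%. For Lcn2 and Slpi the RefSeq start lies inside the gene span of the deposited table, so their windows are not upstream of the whole gene, and 225 of the 250 Lcn2 bases are annotated as Lcn2 exon. Counted from those starts, the Lcn2 match lay at -216 to -209 and the Slpi match at -241 to -234. The 7 are not independent sequences, since Saa1 and Saa2, and Defb3 and Defb6, are related. None of the other 4 motifs searched occurred in the 7. These were a kappaB-type site, present in 3.86% of all promoters, and an AP-1-type site with the letters TGANTCA, present in 6.75%, both searched on either strand. The others were a STAT-type site with the letters TTCNNNGAA, searched on either strand and present in 7.02%, and a TATA box with the letters TATAAA, searched on the sense strand and present in 7.59%. Other spellings of these sites were not searched. The printed Defb3 and Defb6 sequences, for example, both hold tatataag, which the letters TATAAA do not match. The letters describe the windows, and neither a match nor its absence shows whether a factor binds. Of the factors that bind C/EBP-type sites, Cebpd rose from 5.99 ± 1.499 to 106 ± 41.8 CPM and Cebpb from 173 ± 43.6 to 417 ± 109 CPM, and Cebpa fell from 421 ± 74.4 to 176 ± 22.1 CPM, each called by edgeR (adjusted p = 2.63e-06, 0.00356 and 0.00123). Cebpe, a factor of granulocyte maturation, had 0, 0 and 4 counts in wild type and 92, 108 and 141 in knockout and was called higher (log2 fold change 6.43 ± 0.75, edgeR adjusted p = 3.49e-05).

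In the knockout libraries the order of the genes by mean FPKM was Saa3 (438), Slpi (111), Lcn2 (96.5), Defb14 (85.2), Defb4 (37.4), Defb1 (34.9), Defb3 (16.2), Saa1 (3.12), Defb6 (1.52) and Saa2 (0.0741). Neighbours in this order overlapped across libraries, except that every library's Saa3 lay above every library's Slpi, and every library's Defb3 above every library's Saa1. In wild type Defb1 led at 38.4 FPKM, Defb14 followed at 3.71, and no other gene passed 0.167. The 10 genes together held 0.003 to 0.004% of the counts of a wild type library and 0.096, 0.202 and 0.149% of those of a knockout library. Saa3 alone was 38.8, 55.4 and 60.6% of their summed FPKM in knockout.

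The knockout libraries did not rank the genes in 1 way. As a percent of the mean CPM of the 3 knockout libraries, replicate 3 stood at 41.5 for Defb1, 40.0 for Defb3, 39.8 for Defb4, 12.5 for Defb6, 49.8 for Defb14 and 51.7 for Saa1, the lowest of the 3 for each. For Slpi, Lcn2 and Saa3 replicate 1 was the lowest, at 66.1, 57.2 and 50.3, and replicate 3 stood at 85.8, 122 and 103. Apart from Saa2, which had counts in replicate 3 alone, the genes fell into 2 sets by which knockout library was lowest. All 5 beta-defensins and Saa1 were in the first set. The highest library did not follow these sets. It was replicate 2 for Defb1, Defb3, Defb4, Defb6 and Saa1 in the first set and for Slpi and Saa3 in the second. Summed basal and suprabasal keratinocyte markers were also lowest in replicate 3, at 49.1 and 49.8% of their knockout mean, and so were summed adipocyte markers, at 49.4%, and T cell markers, at 78.8%. Nearly all of the adipocyte sum was Fabp4 (457, 430 and 172 CPM). Adipoq, Plin1 and Cidec, on the same list, had 36, 54 and 41 counts in replicate 1 and almost none in the others. Summed neutrophil, macrophage and fibroblast markers were lowest in replicate 1, at 73.0, 68.7 and 56.8%, and highest in replicate 3. Summed endothelial, Langerhans cell and mast cell markers were also lowest in replicate 1, at 68.3, 78.5 and 95.0%. These are 3 libraries and sets read off the values, so no test was made.

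**Figure D3:**
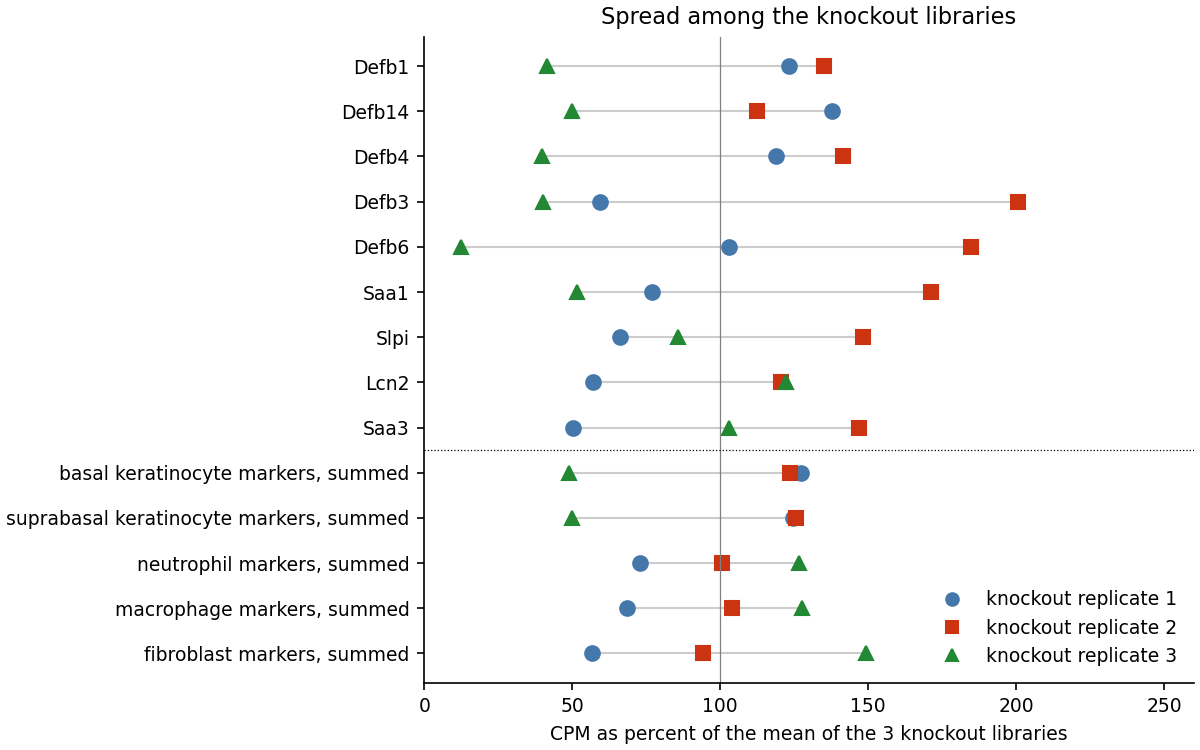
CPM in each of the 3 knockout libraries as percent of their mean, on the horizontal axis, for 9 of the genes (above the dotted line) and for the summed markers of 5 of the 10 cell types (below it), with a grey line from the lowest to the highest library. Replicate 3 (triangles) is lowest for the 5 beta-defensins, Saa1 and both keratinocyte lists, and replicate 1 (circles) is lowest for Slpi, Lcn2, Saa3 and the other 3 lists drawn.

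Set against the summed basal keratinocyte markers, a ratio chosen after the values were seen and given without a test, Defb1 stood at 1.39 to 1.81 CPM per 1000 CPM of markers in wild type and 6.76 to 8.75 in knockout. The markers themselves fell, which raises such a ratio. Within the knockout libraries the highest and lowest Defb1 values were 1.29 times apart on this ratio and 3.26 times apart in CPM, those of Defb4 1.41 and 3.56 times, and those of Defb14 1.19 and 2.76 times. For Saa1 the values were 2.29 and 3.31 times apart, for Defb3 3.49 and 5.02 times, and for Defb6, with few counts, 5.87 and 14.8 times. Lcn2 behaved otherwise: its knockout values were 5.56 times apart over the basal markers, 2.14 times apart in CPM and 1.39 times apart over the macrophage markers. For Saa3 the same 3 values were 5.32, 2.92 and 1.93, and for Slpi 3.37, 2.24 and 2.12. Over the neutrophil and fibroblast markers the values were 1.53 and 1.56 times apart for Lcn2, 2.12 and 2.26 for Saa3, and 2.17 and 2.74 for Slpi. The ratios thus do not single out the macrophage list. In knockout replicates 1 to 3 the summed adipocyte markers stood at 130, 121 and 49.4% of their mean, and the basal markers at 127, 124 and 49.1%. Ratios over the adipocyte markers were not computed, so the basal ratios do not single out keratinocytes either.

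Summed neutrophil, macrophage and fibroblast markers also rose across the groups, whereas the summed keratinocyte markers fell, as given above. Summed neutrophil markers went from 8.65 to 11.6 CPM in the wild type libraries to 1359, 1873 and 2357 CPM in the knockout libraries, with Csf3r the most abundant and Ly6g and Retnlg at 0 in wild type. Summed macrophage markers, led by Mrc1, went from 178 to 201 CPM to 10439, 15785 and 19378 CPM. Summed fibroblast markers, led by Fn1, went from 949 to 1173 CPM to 6844, 11332 and 17962 CPM. Postn, the most abundant fibroblast marker in wild type, fell from 544 to 72.4 CPM on average, against the direction of the sum. Slpi, Lcn2 and Saa3 are expressed by several of these cell types, and the part of the changed cell markers in the levels of the 10 genes was not tested. Of the other lists, 3 of 6 endothelial markers (led by Pecam1), 2 of 6 adipocyte markers (led by Fabp4), 3 of 5 Langerhans cell markers (led by Cd74), 3 of 5 mast cell markers and 1 of 6 T cell markers were called higher. Called lower were 3 T cell markers (Cd3g, the most abundant, among them) and 1 mast cell marker (Kit, the most abundant). On the Langerhans cell list, Cd74, H2-Ab1 and Itgax were the ones called higher, and Epcam was called lower. Cd207, also on that list, was below the filter, with no count in wild type and 1, 2 and 5 in knockout.

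Most other members of these families had no count. Of 37 other beta-defensin genes in the table, 6 had a count in any library, and the largest total was 10 counts (Defb30, with none in wild type and 4, 2 and 4 in knockout). Of 22 alpha-defensin genes, 1 had a count, and Saa4, the constitutive serum amyloid A of the liver, had none in wild type and 5, 0 and 4 in knockout. Saal1, whose symbol resembles these but which is no serum amyloid A gene, went from 22.2 ± 1.34 to 12.6 ± 3.32 CPM, a fall of 0.82 ± 0.24 on the log2 scale (log2 fold change -0.82, edgeR adjusted p = 0.0149).

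Genes that work beside the 10 were read from 5 lists with 137 genes. Of 32 other antimicrobial genes, 19 were called higher, 2 lower and 4 not called, with 7 below the filter. The median log2 fold change of those tested was 3.36, beside -0.03 over all genes tested. In this list and the others, some tested genes, such as S100a8 and Hp, had fewer than 10 counts in every wild type library. Such genes passed the filter through the knockout libraries alone, so the tallies and list medians are not support of their own. S100a8, a subunit of calprotectin, which sequesters zinc and manganese, went from 0.152 ± 0.133 to 2158 ± 1082 CPM (log2 fold change 13.74 ± 0.80). Slc11a1, a metal transporter of phagosomes, went from 2.56 ± 0.482 to 72.6 ± 8.54 CPM (4.83 ± 0.25). Wfdc5, which encodes a protein with the same kind of domain as Slpi, moved the other way, from 61.4 ± 16.9 to 8.08 ± 3.13 CPM (-2.92 ± 0.32). The edgeR adjusted p of these 3 genes was 3.29e-07, 2.05e-07 and 2.13e-05. Camp, the gene of cathelicidin, had 4, 0 and 1 counts in wild type and 18, 2 and 8 in knockout and was not tested.

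Of 21 other acute-phase genes, 10 were called higher, 1 lower and 1 not called, with 9 below the filter (median 4.70 over those tested). Hp, which encodes the haemoglobin-binding haptoglobin, went from 0.0771 ± 0.0671 to 425 ± 158 CPM, and Cd14, the co-receptor for lipopolysaccharide, from 4.56 ± 0.127 to 426 ± 162 CPM. Orm1, the gene of the plasma protein orosomucoid, had 47.1 ± 16.1 CPM in wild type and 1.97 ± 0.740 CPM in knockout. Acute-phase genes therefore included one with the opposite direction to Saa3. The edgeR adjusted p was 1.79e-07 for Hp, 2.84e-07 for Cd14 and 2.2e-06 for Orm1.

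Of 31 genes of inducing cytokines, their receptors and inhibitors, 18 were called higher, 7 lower and 2 not called (median 1.82). The other 4 were below the filter. The list holds decoys or antagonists too: Il1r2 was called higher, and Il22ra2 and Il1f5 were called lower. The tally therefore gives no direction of induction. Osm, the cytokine oncostatin M, rose from 0.0948 ± 0.0368 to 66.3 ± 8.58 CPM (edgeR adjusted p = 1.65e-07). Il10rb, a shared receptor chain for interleukin-22, rose from 12.2 ± 0.897 to 151 ± 20.03 CPM, and Il20rb, a receptor chain for interleukin-20 and interleukin-24, fell from 176 ± 25.2 to 15.9 ± 6.57 CPM (edgeR adjusted p = 3.94e-07 and 4.71e-06). The interleukin-17 and interleukin-22 genes, named after their values were seen, had few counts: Il17a had none in wild type and 0, 2 and 0 in knockout, Il17f 1, 1 and 0 against 3, 5 and 0, and Il22 none against 6, 10 and 0. Il17c, the family member that epithelial cells make, had 2, 0 and 2 counts in wild type and 67, 58 and 39 in knockout and was called higher (edgeR adjusted p = 7.23e-05). Its receptor chain Il17re fell from 23.0 ± 4.69 to 1.87 ± 1.19 CPM, and Il17rc from 129 ± 29.2 to 21.3 ± 8.10 CPM, whereas Il17ra, the shared chain, rose from 26.4 ± 2.42 to 201 ± 41.5 CPM. Il22ra1, the epithelial chain of the interleukin-22 receptor, fell from 9.59 ± 2.94 to 1.24 ± 1.01 CPM. The edgeR adjusted p was 4.16e-05 for Il17re, 3.5e-05 for Il17rc, 2.36e-06 for Il17ra and 0.00218 for Il22ra1.

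Of 27 transcription factors and signalling genes of induction, 22 were called higher, 3 lower and 2 not called (median 2.11). Bcl3, a nuclear partner of NF-kappaB, rose from 5.47 ± 1.25 to 87.6 ± 14.7 CPM, and Socs3, a feedback inhibitor of STAT3 signalling, from 28.1 ± 4.72 to 387 ± 33.1 CPM (edgeR adjusted p = 5.76e-07 and 5.94e-07). Nfkbiz, a co-factor needed for induction of Lcn2 and beta-defensin genes by interleukin-17, rose from 21.6 ± 4.57 to 196 ± 86.5 CPM (edgeR adjusted p = 1.44e-05). The 3 called lower were Cebpa, given above, Traf3ip2 and Traf6. Traf3ip2 and Traf6 had log2 fold changes of -1.13 and -0.82 (edgeR adjusted p = 0.0072 and 0.00755). Whether interleukin-17 signalling changed was not tested. Among 26 receptors, partners and target proteases of the 10 proteins, 13 were called higher, 6 lower and 2 not called, with 5 below the filter (median 1.89). Cd36, a scavenger receptor, rose from 0.843 ± 0.0767 to 95.5 ± 21.5 CPM (edgeR adjusted p = 1.65e-07), and Fpr1, a formyl peptide receptor of phagocytes, had 3 counts in wild type and a ratio of summed counts of 1807 (95% counting interval 618 to 8765). Klk5, a serine protease of the upper epidermis, fell from 193 ± 68.2 to 22.8 ± 7.71 CPM (edgeR adjusted p = 2.38e-05). The 6 called lower in this list became 3 in 3 of 19 alternative settings. These included leaving out knockout replicate 3 and leaving out wild type replicate 2.

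**Figure D4:**
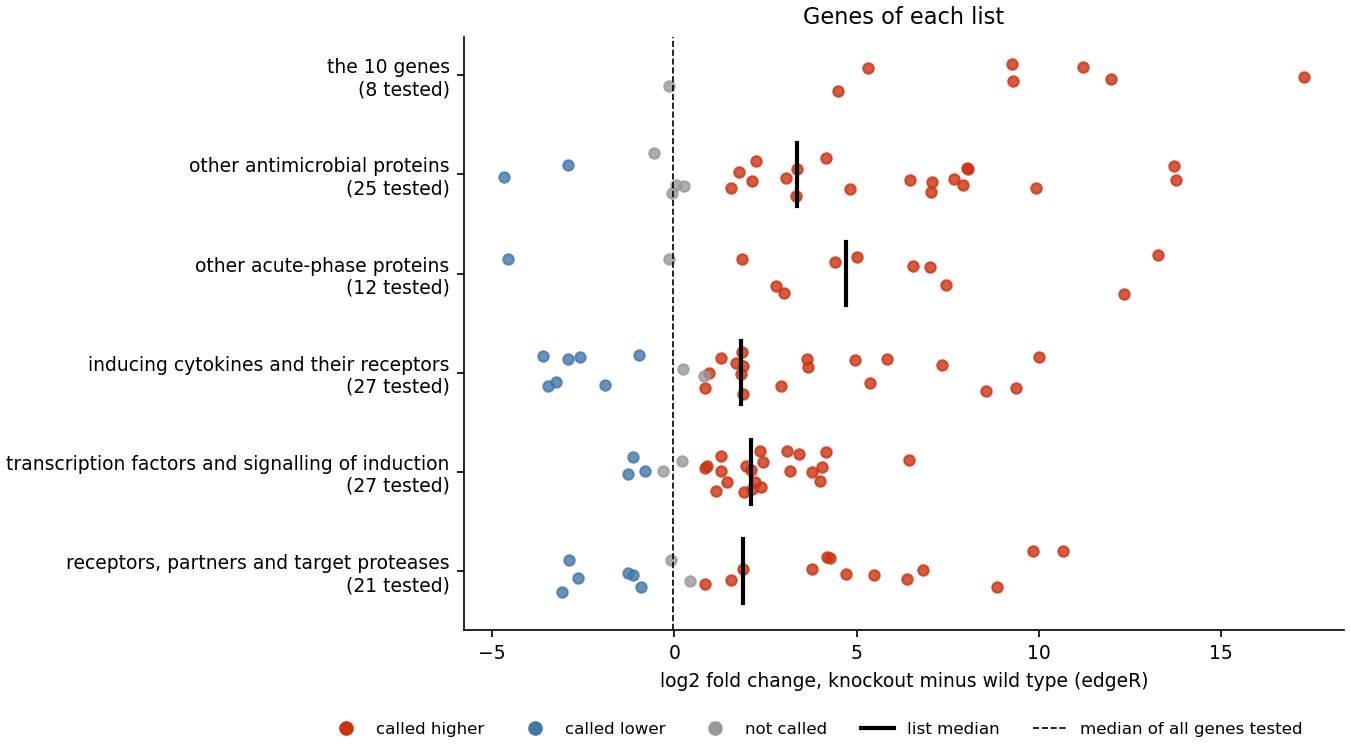
edgeR log2 fold change, knockout minus wild type, on the horizontal axis for each tested gene of the 10 and of the 5 lists, with red points called higher, blue points called lower, grey points not called, black bars at the list medians and a dashed line at the median of all genes tested (-0.03). Points of the 10 genes without a wild type count are fitted values that depend on the method. Each of the 5 list medians, 1.82 to 4.70, lies to the right of the dashed line, and each list holds genes called lower. Each list also holds genes that passed the filter through the knockout libraries alone, so the medians are not support of their own.

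The genes whose levels over the 6 libraries were most like those of each of the 10 were found by the smallest Euclidean distance on log2(CPM + 1). For Lcn2 they were Olfm4 (0.306) and Cxcr2 (0.380), and for Saa3 Ccl8 (0.414) and Tnn (1.02). For Saa1 they were Col28a1 (0.568) and Cd69 (0.601), and for Slpi Slfn1 (0.728) and Crabp1 (0.746). Cxcr2 is also on the neutrophil marker list. Among the beta-defensins, Tmem45b was the nearest gene to both Defb14 (0.773) and Defb4 (0.9505), followed by Alas2 for Defb14 (0.908) and Sprr2j-ps for Defb4 (1.05). Defb3 lay nearest to Tfpi2 (0.679) and Kcna6 (0.725), and Defb1 to Crabp2 (0.781) and Asns (0.892).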

How the data were processed

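The authors deposited whole-number read counts per gene and, in a second table, FPKM values for the same 6 libraries. HISAT2 2.0.5, featureCounts 1.5.0-p3 and mm10 are named per the submitters' processing notes. Counting options, strandedness and annotation release were not given in the sources used here. With strandedness unknown, overlapping or antisense genes may share reads. Every column of values matched 1 library.

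Deposited counts were tested in edgeR 4.0.16 (R 4.3.3) with TMM factors, filterByExpr at its defaults (10 counts, total of 15), robust quasi-likelihood dispersions and genotype as the only term, with Benjamini-Hochberg adjustment over 16471 genes. These held at least 99.7% of each library's counts. Each SE was taken from the log2 fold change and the quasi-likelihood F, and fold intervals rest on it. Where a group had no count, its level was set to 3 counts over that group as a floor, and where it had 1 to 3 counts the ratio carries an exact 95% counting interval. Floors and counting intervals cover counting error only. Deposited FPKM served to compare levels between genes and for limma-trend (limma 3.58.1) on log2(FPKM + 1) and log2(FPKM + 0.1). The test was tried on simulated counts with known changes. It recovered 19.1% of 2-fold and 82.6% of 4-fold changes, and 7.84% of its calls were false. The simulation left out genes without a wild type count, such as Saa3, and changed far fewer genes than were called here.

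The 10 genes and the lists were chosen with earlier results of these data known. The text names the 10, Paxbp1, relatives other than pseudogenes with at least 10 counts, for each list the lowest adjusted p (2 genes in the direction with more calls, 1 in the opposite one), and the most abundant gene of each cell type list. Other list genes were named after their values were seen. Other settings tried were scaling by RLE, upper quartile or library size, a fit with no filter, a filter of 1 CPM in 3 libraries, DESeq2 1.42.0, limma-voom, edgeR without robust estimation, a replicate block, fits leaving out each library or both libraries numbered 1, and the FPKM fits.

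Libraries with the same number in their titles deviated together from their group means, at correlations across genes of 0.23, 0.34 and 0.18, against -0.32 to 0.07 for other pairs, so a fit with the number as a block was run as an alternative. All folds and p-values given in the report come from the fit without it. What a number marks is not in the labels. Positions are those of the deposited tables and were equal in GENCODE M21 for all 10 genes. Promoters are RefSeq's on GRCm38.p6. Protein sequences were not analysed here.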

Additional observations from a re-analysis of the deposited data

How the results depend on the processing

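Under 19 alternative settings the 7 genes called higher stayed called, and none of the 10 was called lower. The count was 7 in each setting except edgeR with no filter, where Defb6 made it 8. Over all genes tested, 4151 to 5321 were called higher and 3388 to 5147 lower. With one library left out these ranges were 4313 to 5017 and 3388 to 4458, and without both libraries numbered 1 there were 4585 higher. The fit with a replicate block called the same number of the 10 (7) and 5089 genes higher, gave Defb1 a log2 fold change of -0.29 (edgeR adjusted p = 0.539) and changed no call among the 10. Fitted log2 fold changes ranged over the settings from 3.79 to 9.66 for Defb3, 5.09 to 11.6 for Defb4, 4.08 to 4.80 for Defb14, 6.50 to 9.77 for Slpi, 6.50 to 15.05 for Lcn2, 1.84 to 6.52 for Saa1 and 8.65 to 17.58 for Saa3. The lowest values of these 7 came from log2(FPKM + 1), which compresses low levels by construction. With one library left out, Defb1 ranged from -0.43 to 0.22, reversing without knockout replicate 3, and Paxbp1 from -0.25 to 0.33, reversing without knockout replicate 1 (-0.25) or wild type replicate 2 (-0.028). Paxbp1 also reversed to -0.078 with upper-quartile scaling, -0.024 with library-size scaling and -0.066 without both libraries numbered 1, and was called in none. The cause was not tested. S100a8 moved to 13.16 without wild type replicate 1 and stayed called, as did Fpr1, whose fitted 10.66 became 11.47 without wild type replicate 3. Upper-quartile and library-size scaling shifted the median of all genes to -0.22 and -0.18. Wild type counts of 0 to 16 limit every fold except that of Defb1.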
